A study of Mus musculus with 6 samples.

Results

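The genes described here are 10 regulators of the circadian clock, Arntl, Clock, Npas2, Per1, Per2, Per3, Cry1, Dbp, Tef and Nr1d1, among the 24411 gene symbols of a liver RNA-seq experiment. They were chosen by symbol, as core clock genes and clock-output regulators, and each one had a single entry in the count table. The livers came from 3 p62+/+ and 3 p62S351E/+ mice at P19 (postnatal day 19), with 1 library per mouse. The p62S351E/+ mice carried 1 knock-in allele of Sqstm1, the gene for p62, in which glutamate takes the place of Ser351 as a mimic of phosphorylation, and the p62+/+ mice carried only wild-type alleles. The knock-in line was derived by prime editing of C57BL/6N-derived embryonic stem cells and was bred from the sperm of a chimeric mouse. The labels and methods used here state neither the time of day at which livers were collected, nor the light schedule, feeding state, sex or litter of any mouse, and a difference in collection time between the mice cannot be told apart from a difference between mice or genotypes. The paper reports retarded growth and serum signs of malnutrition in p62S351E/+ mice younger than P19, and proposes impaired food intake as a possible cause. Nutrition thus cannot be told apart from genotype here, and its part was not tested.

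The mammalian clock is a transcriptional feedback loop present in most cells, including hepatocytes. BMAL1 (encoded by Arntl) pairs with CLOCK or NPAS2 and binds E-box sequences at the genes for the PER and CRY proteins, which accumulate, inhibit their own activators and are then degraded, so that the loop closes about once a day. REV-ERBα (Nr1d1) represses Arntl, whereas DBP and TEF carry the rhythm to other genes through D-box sequences, and in adult liver Arntl and Dbp peak at nearly opposite times of day.

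The sequences through which these proteins act were looked up in the promoters of the members. The stretches that hold the letters of an E-box or D-box before the start are shown, and whether they are bound was not measured. RefSeq promoter windows of GRCm38.p6 (the build of mm10, from 250 bases before to 50 bases after each start) were present for 9 of the 10 members, with 14 windows in all, and Per2 had no window in the table. Capitals mark the motif, and each stretch reads 5′ to 3′ on the strand of its gene. The Per3 stretch lies at chr4:151044796-151044890 (minus strand), that of Cry1 at chr10:85185089-85185153 (minus), that of Per1 at chr11:69098763-69098808 (plus), that of Nr1d1 at chr11:98775380-98775425 (minus), and those of the Tef starts at chr15:81802526-81802571 and chr15:81811256-81811301 (plus).
Per3: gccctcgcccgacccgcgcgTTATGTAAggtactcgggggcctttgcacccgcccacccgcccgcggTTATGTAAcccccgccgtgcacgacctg
Cry1: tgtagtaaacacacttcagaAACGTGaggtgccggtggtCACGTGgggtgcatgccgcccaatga
Per1: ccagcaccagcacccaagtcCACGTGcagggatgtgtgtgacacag
Nr1d1: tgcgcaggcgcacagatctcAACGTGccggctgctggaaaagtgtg
Tef, upstream start: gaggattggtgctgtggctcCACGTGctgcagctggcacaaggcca
Tef, downstream start: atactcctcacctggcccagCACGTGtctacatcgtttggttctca

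The E-box CACGTG was found in windows of Per1, Cry1 and Tef, and 7.15% of all 32851 promoter windows hold it. The related CACGTT, which reads AACGTG on the other strand, was found in Cry1 and Nr1d1 and in 4.68% of all windows. The Cry1 window held both, with their first bases 79 and 60 bases before the start. The D-box TTATGTAA was found only in Per3 among the members, at 205 and 158 bases before the start, and in 0.938% of all windows. The core TAGGTCA, bound by REV-ERB and ROR receptors, was found only in Arntl, 30 bases after the start, and in 2.61% of all windows. Neither the D-box form TTACGTAA nor the cyclic AMP response element TGACGTCA was found in a member window (0.119% and 1.79% of all windows). The core TGACNNNGC of the element bound by NRF2, the transcription factor that p62 acts on through KEAP1, was found in Per1 and Cry1 and in 12.4% of all windows. All motifs were searched on both strands. A match is a match of letters and not a measured binding site, and the absence of one says only that the letters are not in this window.

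The libraries held between 8696712 and 10341622 estimated counts, but 3 genes (Rn45s, Lars2 and Mir6236) took most of them, and between 134911 and 315436 counts, 1.30% to 3.30%, were left for all other genes. The 10 clock genes together had between 86 and 241 counts per library, and the fewest were in p62S351E/+ mouse 1. The hepatocyte marker list (10 genes) was detected in full in every library, with summed normalized counts of 17982 and 28570 in p62S351E/+ mice 1 and 2 and 11639 to 12894 in the other libraries. A list of 10 brain markers, whose defining genes should be absent from liver, had summed normalized counts of 1945 to 2049 in the p62+/+ mice and 1875 in p62S351E/+ mouse 3, but 36.2 and 40.3 in p62S351E/+ mice 1 and 2, in which 7 and 5 of the 10 genes were at 0. These 2 libraries also had 1 and 0 counts of Xist, the female-specific X-inactivation RNA. Mouse 1 of the p62+/+ genotype had 70.8 Xist counts, while p62+/+ mice 2 and 3 and p62S351E/+ mouse 3 had 1505, 1071 and 1537. Sqstm1 itself was measured at 73.0 to 86.4 normalized counts in the p62+/+ and 89.9 to 104.7 in the p62S351E/+ mice (log2 fold change 0.30, SE 0.20, adjusted p = 0.499), and gene counts do not distinguish the alleles.

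Between the genotypes, none of the 10 clock genes was called different. Of the 7 that had enough counts to be tested, 0 were called higher and 0 lower in p62S351E/+ livers by an adjusted p below 0.05 together with a log2 fold change above 1 in either direction (edgeR quasi-likelihood test), and 0 had an unadjusted p below 0.05 (14.6% of all genes tested had one). DESeq2 fitted all 10 and gave 0 unadjusted p-values below 0.05. It gave no adjusted p for Arntl, Npas2 and Cry1, which could not be called, and called 0 of the other 7. Among the 5945 genes tested, 50 were called higher (0.841%) and 5 lower (0.0841%), so that hardly any call would fall on 7 genes at the background rate. The ranges of the genotypes overlapped for all 10 clock genes, whereas 12% of all genes tested had every p62S351E/+ library above every p62+/+ library and 14.7% had every one below. The log2 fold changes of the 7 ran from -0.36 for Nr1d1 to 0.57 for Per2, with a median of 0.09 beside -0.03 over all genes tested. What could be seen was limited by the error of each gene, since the 95% intervals reached past 1 or -1 for 5 of the 7, Per1, Per2, Per3, Dbp and Nr1d1, and stayed within these bounds only for Clock and Tef. The p-values weigh the difference between genotypes against the spread between mice of a genotype, which was estimated partly from all genes tested. No permutation test was run, and an exact one of 3 against 3 could not go below 0.1. In whole liver, fewer cells of a type and less RNA per cell cannot be told apart.

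**Figure D1:**
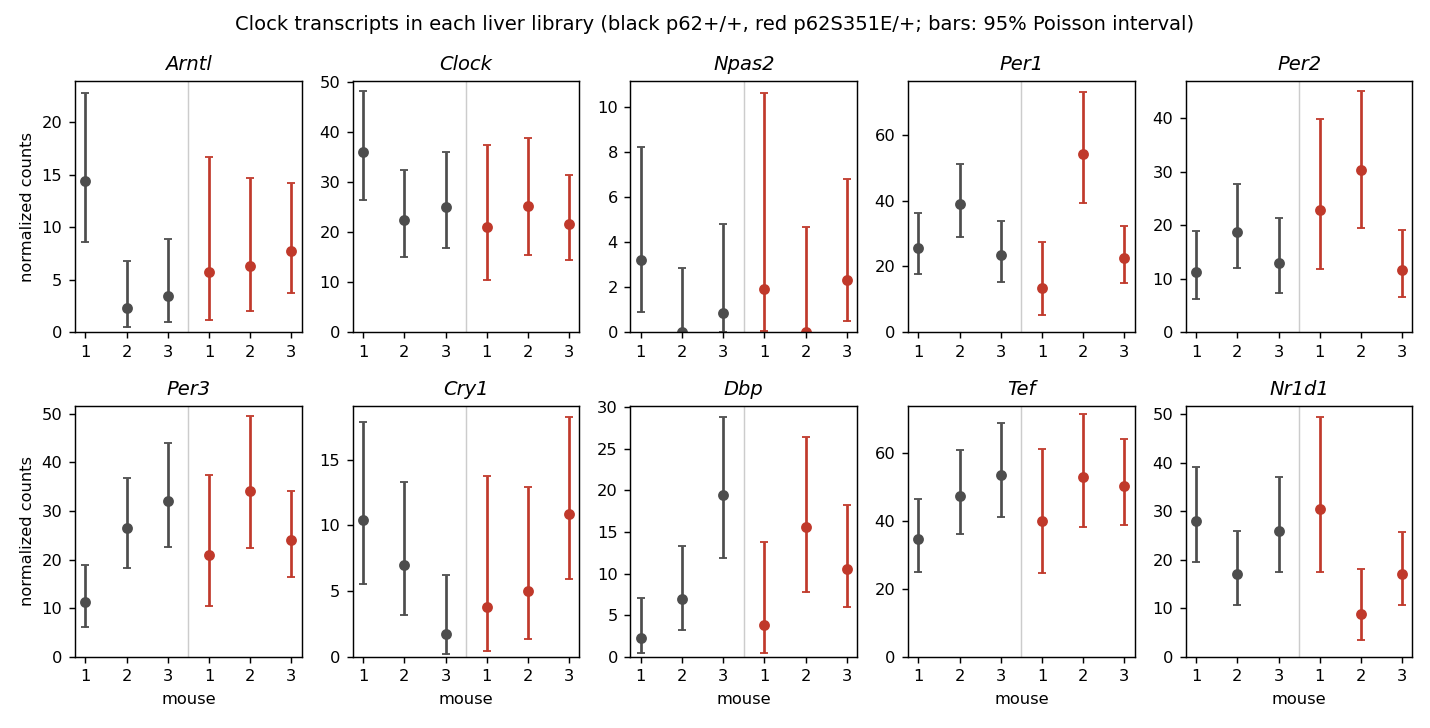
Normalized counts (y axis, linear) of the 10 clock genes in each mouse (x axis, mice 1 to 3 of each genotype, p62+/+ in black and p62S351E/+ in red), with bars for the 95% Poisson interval of the count. The genotypes overlap in every panel, and the spread within a genotype is wide for Dbp in p62+/+ (2.27 to 19.4) and Per1 in p62S351E/+ (13.3 to 54.2).

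Arntl (chr7:113207465-113314126, plus strand of GRCm38) encodes BMAL1, the one activator without which the loop does not run. Its normalized counts were 14.4, 2.33 and 3.45 in the p62+/+ mice and 5.71, 6.30 and 7.75 in the p62S351E/+ mice, from 18, 3 and 4 and from 3, 5 and 10 counts. The highest and the lowest Arntl value of all 6 libraries were both in p62+/+ mice, and the exact 95% Poisson interval of mouse 1 (8.56 to 22.8) lay above that of mouse 2 (0.480 to 6.81). The intervals cover counting error only. The p62+/+ mean of 6.74 ± 6.70 (SD, n = 3) and the p62S351E/+ mean of 6.59 ± 1.05 (SD, n = 3) were nearly equal. Arntl had too few counts for the filter, and in a fit without it the log2 fold change was -0.03 (adjusted p = 0.985).

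Clock (chr5:76209868-76304792, minus strand), which encodes the usual partner of BMAL1, was the best measured activator, with normalized counts of 36.1, 22.5 and 25.0 in the p62+/+ and 20.9, 25.2 and 21.7 in the p62S351E/+ mice. Only p62+/+ mouse 1 stood above the narrow band of the other libraries. The log2 fold change was -0.30 (SE 0.27, 95% interval -0.92 to 0.32, adjusted p = 0.599), or -0.06 without p62+/+ mouse 1. Npas2 (chr1:39193731-39363236, plus strand), which encodes an alternative partner of BMAL1, was near the detection limit, with 4, 0 and 1 counts in the p62+/+ and 1, 0 and 3 counts in the p62S351E/+ mice. A library with 0 counts allows a level of up to 2.33 normalized counts in p62+/+ mouse 2 and 3.78 in p62S351E/+ mouse 2 (a floor of 3 counts), or 2.86 and 4.65 by the upper bound of the exact 95% Poisson interval, and no difference was detectable at this depth.

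Among the repressors, Per1 (chr11:69095217-69109960, plus strand), an early-responding gene that also reacts to hormones and light, had normalized counts of 25.7, 38.8 and 23.3 in the p62+/+ and 13.3, 54.2 and 22.5 in the p62S351E/+ mice. The widest difference was between p62S351E/+ mice 1 and 2, which differed 4.06-fold and whose Poisson intervals (5.36 to 27.5 and 39.2 to 73.0) did not overlap. The group means were 29.3 ± 8.35 and 30.0 ± 21.4 (SD, n = 3 each), and the log2 fold change was 0.04 (SE 0.48, 95% interval -1.07 to 1.15, adjusted p = 0.972). Its sign turned when p62+/+ mouse 1 (-0.04), p62+/+ mouse 3 (-0.09) or p62S351E/+ mouse 2 (-0.66) was left out.

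Per2 (chr1:91415982-91459324, minus strand), whose product forms the repressive complex with CRY, had normalized counts of 11.2, 18.6 and 13.0 in the p62+/+ and 22.9, 30.2 and 11.6 in the p62S351E/+ mice. Of the 7 genes it had the largest log2 fold change, 0.57 (SE 0.40, 95% interval -0.35 to 1.49, adjusted p = 0.521), with p62S351E/+ mice 1 and 2 above all other libraries and mouse 3 within the p62+/+ range. The same 2 libraries were those with few brain marker counts, more hepatocyte marker counts and no or 1 Xist count. Without p62S351E/+ mouse 3 the log2 fold change of Per2 was 0.90 (SE 0.34, adjusted p = 0.0834), and without p62S351E/+ mouse 2 it was 0.22 (adjusted p = 0.855). With Xist as a covariate it was 0.18 (adjusted p = 0.909), and with the summed brain markers as a covariate it was -0.31 (adjusted p = 0.99). The part of brain RNA, hepatocyte RNA or sex in the Per2 values was not tested beyond this.

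Per3 (chr4:151003652-151044665, minus strand), a Per family member with a minor role in the loop and a strong rhythm in liver, had normalized counts of 11.2, 26.4 and 32.0 in the p62+/+ and 20.9, 34.0 and 24.0 in the p62S351E/+ mice. The lowest value was in p62+/+ mouse 1, and the highest in p62S351E/+ mouse 2. The log2 fold change was 0.19 (SE 0.39, 95% interval -0.71 to 1.09, adjusted p = 0.834), and it was -0.14 without p62+/+ mouse 1 and -0.03 without p62S351E/+ mouse 2. Cry1 (chr10:85131700-85185064, minus strand), the repressor that is expressed late in the cycle, had 13, 9 and 2 counts in the p62+/+ and 2, 4 and 14 in the p62S351E/+ mice. These are normalized counts of 10.4, 6.99 and 1.73 and of 3.81, 5.04 and 10.8, so that each genotype had a low and a high mouse, and the fit without a filter gave a log2 fold change of 0.11 (adjusted p = 0.941).

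Dbp (chr7:45705088-45710203, plus strand), a D-box-binding activator and one of the most rhythmic transcripts of the liver, varied most within a genotype among the genes tested. Its normalized counts were 2.27, 6.99 and 19.4 in the p62+/+ and 3.81, 15.6 and 10.5 in the p62S351E/+ mice. The Poisson intervals of p62+/+ mouse 1 (0.497 to 7.04) and mouse 3 (11.9 to 28.8) did not overlap. The log2 fold change between the genotypes was 0.12 with the largest SE of the 7, 0.71 (95% interval -1.53 to 1.77, adjusted p = 0.945), and without p62+/+ mouse 1, p62+/+ mouse 2 or p62S351E/+ mouse 2 it was -0.33, -0.05 or -0.23. Of the exonic bases of Dbp, 29.3% (539 bases) overlap exons of Sphk2, which lies on the opposite strand, and Dbp had counts that were not whole numbers in 4 of the 6 libraries.

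Tef (chr15:81802421-81826863, plus strand), which encodes another activator of D-box genes with a weaker rhythm than Dbp, had the most counts of the 10, with normalized counts of 34.5, 47.4 and 53.5 in the p62+/+ and 40.0, 52.9 and 50.4 in the p62S351E/+ mice. It was the most evenly expressed of the 7 across the libraries together with Clock, and the log2 fold change was 0.09 (SE 0.24, 95% interval -0.47 to 0.64, adjusted p = 0.882) or -0.07 without p62+/+ mouse 1. Nr1d1 (chr11:98767932-98775333, minus strand), which encodes the haem-binding receptor REV-ERBα, had normalized counts of 28.1, 17.1 and 25.9 in the p62+/+ and 30.5, 8.82 and 17.0 in the p62S351E/+ mice. Mouse 1 of the p62S351E/+ genotype was the highest and mouse 2 the lowest of all 6 libraries, a 3.45-fold difference within the genotype. Between the genotypes the log2 fold change of Nr1d1 was -0.36 (SE 0.43, 95% interval -1.34 to 0.61, adjusted p = 0.68). It was -0.83 without p62S351E/+ mouse 1 and -0.02 without p62S351E/+ mouse 2. Its exons overlap those of Thra, on the opposite strand, over 263 bases (9.67% of Nr1d1 exons), and Thra, the thyroid hormone receptor alpha gene, was at 17.7, 18.6 and 20.7 in the p62+/+ and 3.81, 5.04 and 13.9 in the p62S351E/+ mice (log2 fold change -1.21, SE 0.45, adjusted p = 0.289). The 2 lowest Thra values were in the libraries with few brain marker counts, and the part of brain RNA in them was not tested. Smaller overlaps with antisense genes cover 4.1% of Tef exons (Gm17597) and 1.07% of Arntl exons (Gm45355). The sources used here do not state whether reads were counted by strand, and reads from overlapping stretches cannot be told apart.

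**Figure D2:**
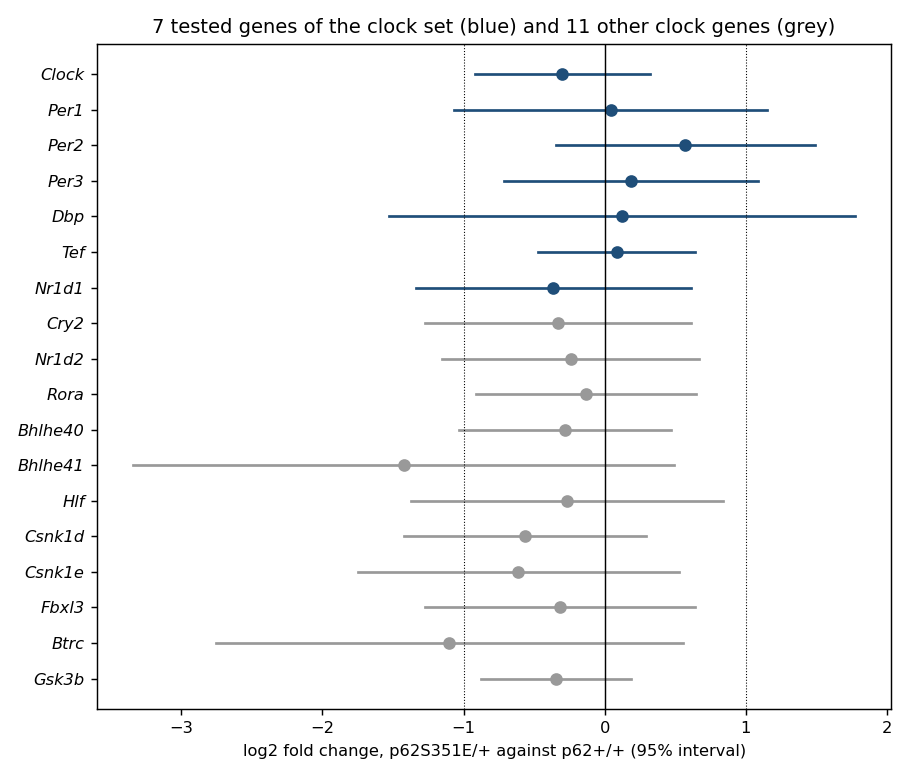
Log2 fold change of p62S351E/+ against p62+/+ (x axis; points, with lines for the 95% interval) for the 7 tested clock genes of the set in blue and 11 other clock genes in grey. The blue intervals all span 0, and dotted lines mark the fold change thresholds at 1 and -1.

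Per kilobase of exon, so that genes can be compared with each other, the order of mean normalized levels in the p62+/+ mice was Tef (9.58), Nr1d1 (8.71), Per1 (5.20), Dbp (5.20), Per3 (3.87), Clock (2.81), Per2 (2.45), Arntl (2.18), Cry1 (2.11) and Npas2 (0.321). In the p62S351E/+ mice it was Tef (10.1), Nr1d1 (6.90), Dbp (5.43), Per1 (5.33), Per3 (4.39), Per2 (3.70), Clock (2.28), Cry1 (2.17), Arntl (2.13) and Npas2 (0.333). Tef and Nr1d1 thus led in both genotypes and Npas2 was last in both. The ranges over the 3 mice overlapped for every pair of neighbours in both orders except Arntl and Npas2 in p62S351E/+ (1.85 to 2.51 against 0 to 0.549), so that most neighbouring ranks did not differ beyond the spread between mice. Dbp had the widest range, 1.24 to 10.6 per kilobase in the p62+/+ mice.

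Clock genes peak at different times of day, so the profile of each library is given on its own. In p62+/+ mouse 1, the activators Arntl, Clock and Npas2 had their highest values of all 6 libraries, while Per2, Per3, Dbp and Tef had their lowest, though Per2 was only just below its level in p62S351E/+ mouse 3 (11.2 against 11.6). Over all genes tested, 14.9% were highest and 13.9% lowest in this library. In p62S351E/+ mouse 2, Per1, Per2 and Per3 were highest and Nr1d1 was lowest (all genes tested, 23.1% and 20.8%). In p62+/+ mouse 3, Dbp and Tef were highest and Cry1 lowest (15.1% and 13.3%), and in p62S351E/+ mouse 1, Nr1d1 was highest and Clock and Per1 lowest (20.6% and 23.1%). In that last library the shares of the 10 members were no higher than those of all genes. The same held for the lowest values in p62S351E/+ mouse 2 and p62+/+ mouse 3. The highest values in these mice, 3 and 2 of the 10 members, were near the shares of all genes. The libraries with extreme values were thus in both genotypes. They were picked out after their values were seen, the low count of most members adds error to every rank, and whether the mice differed in phase was not tested.

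**Figure D3:**
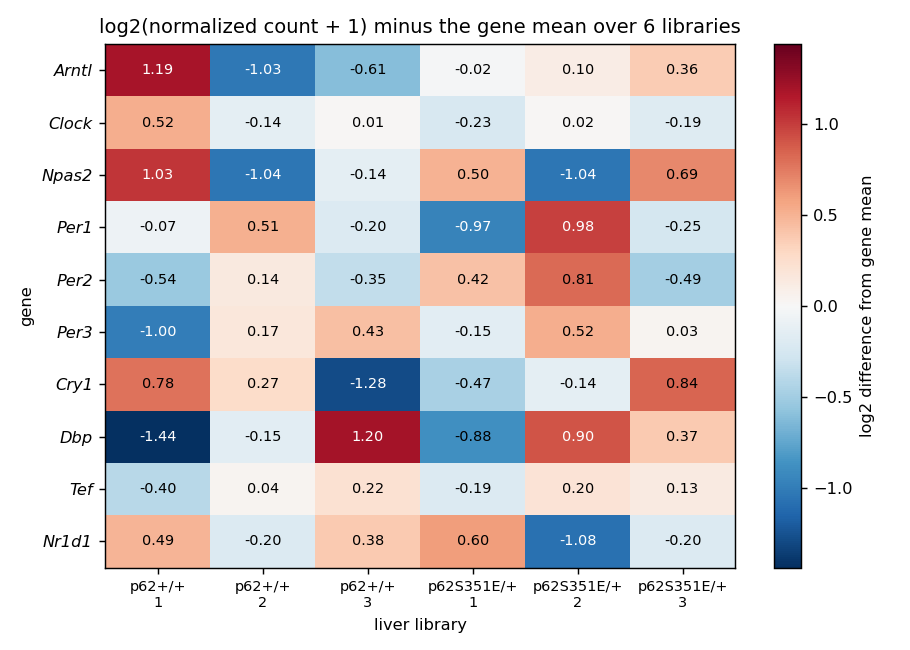
Log2 of the normalized count plus 1, minus the mean of the gene over the 6 libraries (colour and printed value), for the 10 clock genes (y axis) in each liver library (x axis). In p62+/+ mouse 1, Arntl, Clock and Npas2 lie above their mean and Per2, Per3, Dbp and Tef below it.

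The balance of Arntl and Dbp, which are nearly opposite in phase in adult liver, needs no scaling between libraries. Arntl made up 85.7% of the summed Arntl and Dbp counts in p62+/+ mouse 1 (18 of 21 counts, exact Clopper-Pearson 95% interval 63.7% to 97.0%). In p62+/+ mice 2 and 3 it was 25.0% (3 of 12, 5.49% to 57.2%) and 15.4% (4 of 26, 4.36% to 34.9%). Mouse 1 thus differed from its genotype's other mice by more than counting error. In the p62S351E/+ mice the share was 60% (3 of 5, 14.7% to 94.7%), 29.4% (5 of 17, 10.3% to 56.0%) and 41.7% (10 of 24, 22.1% to 63.4%), and these intervals overlapped each other, with the shares themselves between the p62+/+ extremes. Against Nr1d1, its direct repressor, Arntl made up 34.0%, 12% and 11.8% of the summed counts in the p62+/+ and 15.8%, 41.7% and 31.3% in the p62S351E/+ mice. Here the intervals of p62+/+ mouse 1 (21.5% to 48.3%) and mouse 3 (3.30% to 27.5%) overlapped, and the highest share was in p62S351E/+ mouse 2, on 12 counts.

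**Figure D4:**
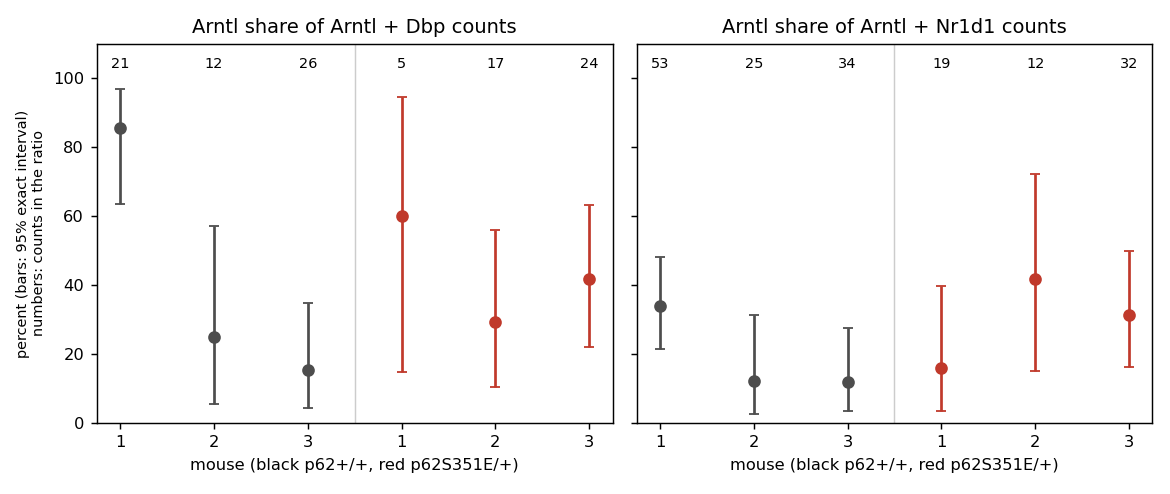
Share of Arntl in the summed counts of Arntl and Dbp (left) and of Arntl and Nr1d1 (right), in percent, for each mouse (x axis), with bars for the exact 95% interval and the summed counts printed above. In the left panel p62+/+ mouse 1 (85.7%) stands above p62+/+ mice 2 and 3, and the points of the p62S351E/+ mice lie between the p62+/+ extremes.

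Of 18 other clock genes, 12 were tested, and 0 were called higher and 0 lower, with 11 of the 12 fold changes below 0 and a median of -0.32 (all genes tested, -0.03). For 4 of the 12, Bhlhe41, Csnk1e, Btrc and Gsk3b, every p62S351E/+ library was below every p62+/+ library, beside 14.7% of all genes. The fold change of Rora, which encodes a receptor that competes with REV-ERB proteins for their sites, was -0.13 (adjusted p = 0.869). The most negative were those of Bhlhe41, which encodes the repressor DEC2, at 8.83, 10.9 and 7.77 against 0, 1.26 and 6.97 (-1.42, SE 0.85, adjusted p = 0.454), and of Btrc, which encodes a ubiquitin ligase subunit acting on PER proteins, at 15.2, 17.9 and 13.8 against 0, 6.30 and 13.2 (-1.10, SE 0.71, adjusted p = 0.492). In both genes p62S351E/+ mouse 3 lay close to the p62+/+ mice and the libraries with few brain marker counts were low. Without p62S351E/+ mouse 3, a fit in which 5.15% of all genes were called higher and 15.3% lower, Bhlhe41 (-3.42, adjusted p = 0.0111) and Btrc (-2.08, adjusted p = 0.0409) were called lower. With the brain markers as a covariate, the values were -0.33 for Bhlhe41 (adjusted p = 0.99) and -0.20 for Btrc (adjusted p = 0.994). The part of brain RNA in these values was not tested further.

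Some relatives of the members were singled out after their values were seen. Nr1d2, the paralogue of Nr1d1, was at 15.2, 38.8 and 39.7 normalized counts in the p62+/+ and 17.1, 32.8 and 28.7 in the p62S351E/+ mice. Hlf, the relative of Dbp and Tef, was at 9.63, 24.8 and 21.6 and at 7.62, 25.2 and 13.2. Both were lowest in mouse 1 of each genotype, as were Per3, Dbp and Tef among the 7 tested members and 11.5% of all genes tested, whereas Nr1d1 was highest in mouse 1 of each genotype. Nfil3, which encodes a repressor at D-boxes, was at 8.83, 3.88 and 6.91 and at 22.9, 8.82 and 7.75, with its highest value in p62S351E/+ mouse 1, and had too few counts to be tested.

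Among 18 genes known to follow the clock or feeding in liver, 13 were tested, and 1 was called higher and 0 lower (all genes tested, 0.841% and 0.0841%). The median log2 fold change was 0.33 (all genes tested, -0.03). Of the 13, 6 had an unadjusted p below 0.05 (edgeR quasi-likelihood test), beside 14.6% of all genes tested. Every p62S351E/+ library was above every p62+/+ library for 5 of the 13 and below for 2, beside 12% and 14.7% of all genes tested. The gene called was Cyp2a5, a cytochrome P450 driven by DBP family proteins and also induced by xenobiotics, at 45.3, 134 and 104 normalized counts in the p62+/+ and 844, 921 and 788 in the p62S351E/+ mice (log2 fold change 3.18, SE 0.39, adjusted p = 0.00891). All 3 p62S351E/+ mice were above the p62+/+ range. The cause of this rise in Cyp2a5 was not tested. Without p62+/+ mouse 3 its adjusted p was 0.0608, and its counts were not whole numbers in any of the 6 libraries, so that the division of reads between Cyp2a5 and its close relatives is uncertain. The second largest positive fold change was that of Gys2, liver glycogen synthase, 0.77 (adjusted p = 0.282). Cyp7a1, the rate-limiting enzyme of bile acid synthesis, was at 32.1, 66.0 and 79.5 against 15.2, 22.7 and 15.5 (-1.72, SE 0.36, adjusted p = 0.084). Every p62S351E/+ mouse was below every p62+/+ mouse, but the gene missed the threshold. Cyp7a1 passed it in 2 of the 15 alternative fits that tested it. These were the fit without p62S351E/+ mouse 3 (adjusted p = 0.00995), which called 15.3% of all genes lower, and the fit without a filter on low counts (adjusted p = 0.0363). The highest adjusted p was 0.329, with the Xist covariate.

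Signals that can move clock genes in liver were examined through their targets. Of 10 glucocorticoid-responsive genes, 9 were tested and 0 called, with 6 fold changes above 0, 3 below and a median of 0.14. The largest were those of Zfp36, which encodes an mRNA-destabilizing protein (1.27, adjusted p = 0.44), and Tat, tyrosine aminotransferase (0.88, adjusted p = 0.363), and the most negative those of Sgk1, a kinase gene (-0.72, adjusted p = 0.468), and Errfi1, an inhibitor of EGF receptor signalling (-0.48, adjusted p = 0.51). Of 8 temperature-responsive genes, 5 were tested and 0 called, with a median of 0.14. Rbm3, a cold-induced RNA-binding protein gene, had a fold change of 0.44 (adjusted p = 0.453) and Hspa8, the constitutive HSC70 gene, one of 0.29 (adjusted p = 0.554). Hsph1, a heat shock protein gene, was at -0.60 (adjusted p = 0.525). Hsp90aa1, the inducible HSP90 gene, was at 137, 135 and 132 normalized counts in the p62+/+ and 40.0, 50.4 and 125 in the p62S351E/+ mice (-0.89, adjusted p = 0.356), and its low libraries were again those with few brain marker counts. Without p62S351E/+ mouse 3, Hsp90aa1 was called lower (adjusted p = 0.000408) and Zfp36 (adjusted p = 0.00785) and Tat (adjusted p = 0.00967) higher, in the fit that called 5.15% of all genes higher and 15.3% lower. With the brain markers as a covariate, the fold changes were -0.08 for Hsp90aa1, -0.71 for Zfp36 and -0.07 for Tat, and none was called.

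The genes whose pattern over the 6 libraries was nearest to that of Dbp, by the mean absolute difference of centred log2 CPM (library-scaled counts), included Nit2 (0.22) and Spr (0.25). Nearest to Arntl were Rc3h2 (0.19), Las1l (0.24) and Plcxd2 (0.25). None of these 5 is one of the clock genes listed here. Rc3h2 was at 38.5, 16.3 and 13.8 normalized counts in the p62+/+ and 17.1, 21.4 and 24.0 in the p62S351E/+ mice, with the same high library as Arntl. Nit2 was at 4.01, 8.54 and 15.5 and at 3.81, 11.3 and 10.8, in the same rank order as Dbp within each genotype. With 6 libraries and few counts, such likeness is a description only.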

How the data were processed

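Total liver RNA was depleted of ribosomal RNA, and 75-base single-end reads were trimmed with Trim Galore and mapped to mm10 with STAR. The authors deposited expected counts per gene from RSEM, without normalization (6.45% of nonzero values not whole). Versions and the gene annotation are not given in the sources used here. Groups and replicate numbers came from the labels.

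Counts were rounded and tested in R 4.3.3 with edgeR 4.0.16 (quasi-likelihood, robust, filterByExpr with a minimum count of 10, TMM), with p-values adjusted by Benjamini-Hochberg over 5945 genes. Standard errors were derived from the fold change and the F statistic of each gene. For normalized counts, each library was divided by its TMM-scaled size after setting the geometric mean of the 6 sizes to 1. Exons were taken from GENCODE M21 basic and promoters from RefSeq, both on GRCm38. Low depth (see the library totals) leaves wide intervals. The Poisson and Clopper-Pearson intervals cover counting error only. The intervals of the fold changes were built from the standard errors of the fit, and so also include the spread between mice.

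The members and lists were chosen with earlier results of these data known. Named genes were the 10 members, Sqstm1, Xist, Thra, the called genes of 4 lists with the 2 largest and 2 most negative fold changes of each, and the 3 genes nearest to Dbp and to Arntl. Of the genes this rule selects, 3 are not reported here. Nr1d2, Hlf, Nfil3, Csnk1e and Gsk3b lie outside the rule and were named after their values were seen. Alternatives were DESeq2 1.42.0, the legacy quasi-likelihood method, other scalings and filters, a replicate block, brain marker and Xist covariates, no minimum fold change and leave-one-out fits over the mice. The test scripts were first run on simulated data.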

Additional observations from a re-analysis of the deposited data

How the results depend on the processing

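No clock gene of the 10 was called under any of the 16 alternative fits or without a minimum fold change, and the lowest adjusted p of any was 0.0834, for Per2 without p62S351E/+ mouse 3. A gene without an adjusted p could not be called, and only the fit without a filter gave one to all 10. The fit with at least 10 counts in every library gave one to 4, and the remaining fits to between 7 and 9. Clock (-0.96 to -0.06) and Nr1d1 (-1.11 to -0.02) were below 0 in every fit that gave them a value, but came close to 0 without p62+/+ mouse 1 and p62S351E/+ mouse 2, respectively. The others turned sign in some, always without a call. With library size alone as the scale, where the median over all genes became -0.68, Per1 was at -0.60, Per2 at -0.19, Per3 at -0.45, Dbp at -0.45 and Tef at -0.52. With at least 10 counts required in every library, Per3 was at -0.056 and Tef at -0.15. Per1 was at -0.016 without Rn45s, Lars2 and Mir6236, at -0.37 with the brain marker covariate and at -0.14 with the Xist covariate, and Per2 was at -0.31 with the brain marker covariate. Leaving out 1 mouse at a time gave -0.66 to 0.38 for Per1, -0.14 to 0.49 for Per3, -0.33 to 1.10 for Dbp and -0.069 to 0.23 for Tef. The cause of these turns was not tested.

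Over all genes, the 50 higher and 5 lower calls became 66 and 8 with DESeq2, 59 and 8 with the legacy method, 12 and 2 with library size alone, 79 and 10 without a filter, 70 and 29 with at least 10 counts in every library, 29 and 2 with the brain marker covariate and 27 and 2 with the Xist covariate. They were 329 and 976 without p62S351E/+ mouse 3, and 16 to 30 higher and 1 to 4 lower without any other mouse. Cyp2a5 missed the threshold with library size alone (adjusted p = 0.0548).

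The replicate numbers are shared by the genotypes, but the mice with the same number did not deviate together (r = 0.0757, -0.0906 and -0.00137 over 5945 genes), and not every mouse was closest to its own number. With the replicate number as a block, 18 genes were called higher and 1 lower, 0 of them clock genes of the 10, and Per1 was at -0.13.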
